A study of Mus musculus with 77 samples.

Results

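The phase II conjugation enzymes are described here as the 49 array IDs, of 18138 in all, whose gene symbol begins with a cytosolic or microsomal glutathione transferase name (Gst with a class letter, or Mgst), with Ugt or with Sult. The choice was made by name and used no measured value. The Gst class had 23 members, the Ugt class 16 and the Sult class 10. All 49 symbols matched a gene of the mouse RefSeq table.

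The data are liver RNA of male B6C3F1 mice after 7 days of exposure, measured on 1-colour Illumina bead arrays in 77 samples of 18 groups. Every mouse, control or exposed, was a male of that hybrid strain, and the labels name no allele. The exposed groups received di(2-ethylhexyl) phthalate (DEHP) at 750, 1500, 3000 or 6000 ppm, n-butyl benzyl phthalate (BBP) at 1500, 3000, 6000 or 12000 ppm, di-n-octyl phthalate (DNOP) at 1250, 2500, 5000 or 10000 ppm, or phenobarbital (PB) at 75, 150, 300 or 600 ppm. Each dose group had 4 samples, except 3 at 10000 ppm DNOP. The references were 10 phthalate controls and 4 PB controls at 0 ppm. DEHP, BBP and DNOP shared the phthalate controls, so their values are given side by side. The labels give neither the medium of the ppm doses nor the age of the mice. Nor do they tell separate animals from repeat samples: each PB dose group carries 2 label numbers with 2 samples apiece, the 10 phthalate controls carry 4 label numbers and the 4 PB controls 3, so the p-values below measure the spread between these samples, which may be partly technical.

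Conjugation makes lipophilic compounds soluble enough to leave the cell. Glutathione transferases join glutathione to electrophiles, UDP-glucuronosyltransferases join a sugar acid to phenols, steroids, bilirubin and drugs, and sulfotransferases move a sulfate group from the donor PAPS to phenols, steroids and bile acids. In rodent liver many of these genes are known targets of the receptors CAR and PXR, which phenobarbital engages, and of NRF2, while peroxisome proliferators such as the DEHP metabolite MEHP act mainly through PPARA. DEHP carries branched 2-ethylhexyl chains, BBP a butyl and a benzyl group, and DNOP linear octyl chains.

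The promoters of 4 genes called below are shown, chosen among the members in the RefSeq promoter table: Gstk1 moved in opposite directions with DEHP and PB, Gsta1 and Gsta2 had their highest values with PB, and Gstm1 rose with PB. Each runs 5′ to 3′ on the gene's strand, from 250 bases before to 50 bases after the RefSeq gene start in GRCm38.p6. Capitals mark AGGTCA, or its reverse complement TGACCT, the core hexamer of the elements bound by PPARA, CAR and other nuclear receptors. The windows are chr6:42245685-42245984 on the plus strand for Gstk1, chr9:78230419-78230718 on the plus strand for Gsta1, chr9:78347096-78347395 on the minus strand for Gsta2, and chr3:108017769-108018068 on the minus strand for Gstm1.
Gstk1: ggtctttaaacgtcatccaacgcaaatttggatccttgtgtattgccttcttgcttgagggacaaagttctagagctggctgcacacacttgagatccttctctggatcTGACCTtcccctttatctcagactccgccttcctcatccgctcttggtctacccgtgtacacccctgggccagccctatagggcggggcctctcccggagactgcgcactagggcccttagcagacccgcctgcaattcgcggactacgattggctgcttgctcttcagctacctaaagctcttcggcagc
Gsta1: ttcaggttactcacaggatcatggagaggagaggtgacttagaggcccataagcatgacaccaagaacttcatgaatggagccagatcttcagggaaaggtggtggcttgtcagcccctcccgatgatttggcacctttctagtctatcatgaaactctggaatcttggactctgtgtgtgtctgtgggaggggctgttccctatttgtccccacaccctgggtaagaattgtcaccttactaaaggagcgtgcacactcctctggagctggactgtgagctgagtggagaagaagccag
Gsta2: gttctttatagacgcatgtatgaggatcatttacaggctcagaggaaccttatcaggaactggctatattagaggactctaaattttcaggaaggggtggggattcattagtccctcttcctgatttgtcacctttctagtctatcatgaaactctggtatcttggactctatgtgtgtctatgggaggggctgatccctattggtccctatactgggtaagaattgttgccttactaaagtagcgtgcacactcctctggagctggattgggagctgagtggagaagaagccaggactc
Gstm1: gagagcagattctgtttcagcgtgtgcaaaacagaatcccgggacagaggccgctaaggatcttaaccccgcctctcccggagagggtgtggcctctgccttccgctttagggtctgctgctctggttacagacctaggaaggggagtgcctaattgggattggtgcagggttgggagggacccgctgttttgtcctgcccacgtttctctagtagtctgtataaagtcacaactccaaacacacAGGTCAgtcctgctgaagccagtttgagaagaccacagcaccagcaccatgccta
The Gsta1 and Gsta2 windows had 235 identical bases of 288 aligned, or 81.6%, against 61.9% between Gsta1 and Gstk1 and 64.2% between Gsta1 and Gstm1. The hexamer stood once in the Gstk1 window, starting at base -141 relative to the gene start, and once in the Gstm1 window shown, starting at base -5. Gstm1 has 2 windows in the RefSeq promoter table, and the one shown came first when ordered by number of hexamer matches. Gstk1, Gsta1 and Gsta2 have 1 window each. The hexamer was in neither Gsta window. Searched on both strands, it was present in 9 of the 45 members in the RefSeq promoter table (20%: Gstk1, Gstm1, Sult1b1, Sult1e1, Ugt2b35, Ugt2b36, Ugt2b37, Ugt2b38 and Ugt2b5), and in 18.13% of the 27025 genes of the table (5340 of its 32851 promoters, or 16.26%). Gsta4, Gstt2, Sult4a1 and Ugt3a2 had no entry. A match is a run of letters and not a shown binding site.

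All values are log2 signal after background correction and quantile normalization, and a difference of 1 on this scale is a doubling. The arrays had 36.88% to 46.64% of genes above background and a mean signal of 132.2 to 519.5, with PB control replicate 1 the dimmest. Genes above background (a detection p under 0.05) on 3 or more arrays were tested. These were 11324 genes, among them 38 of the 49 members: 22 Gst, 11 Ugt and 5 Sult. A call means an adjusted p under 0.05, by Benjamini-Hochberg over all 11324 genes, in 1 limma fit of all samples. Cyp4a14, a PPARA target, stood 29.6-fold higher at 6000 ppm DEHP, 35.6-fold at 12000 ppm BBP and 19.96-fold at 10000 ppm DNOP. Cyp2b10, a CAR target, was above background on all 4 arrays at 600 ppm PB and on no PB control array, and stood at least 139-fold higher with PB under the reported scaling. Its log2 signal was 5.43 to 6.95 at 6000 ppm DEHP and 5.34 to 7.26 at 12000 ppm BBP, against 4.27 to 4.77 in phthalate controls. Only 1 of 10 phthalate control arrays measured Cyp2b10 above background, so no fold is given for the phthalates. The check genes did not separate the exposures cleanly. Cyp3a11 stood 11.13-fold higher at 6000 ppm DEHP (adjusted p = 1.3e-07 by limma) and 27.52-fold at 600 ppm PB (adjusted p = 1.09e-08 by limma). Cyp2c55 stood 2.70-fold higher at 6000 ppm DEHP (adjusted p = 0.000908 by limma). Its samples there, at 4.90, 7.59, 7.02 and 5.80, overlapped the phthalate controls, at 4.47 to 6.35. Only 4 of 10 phthalate control arrays measured Cyp2c55 above background, so the size of that fold is uncertain. Cyp4a14 stood 5.78-fold higher at 600 ppm PB, not called (adjusted p = 0.0833 by limma).

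The phthalate controls differed among themselves in PPARA targets. Phthalate control replicates 1 to 3, which carry the label number 32, had Cyp4a14 at 10.996, 11.871 and 12.157, against 4.488 to 9.091 in the other 7. Acot1 was at 10.281, 9.993 and 10.927 in these 3, against 6.088 to 7.886, and Ehhadh at 8.276, 8.440 and 9.594, against 6.306 to 7.241. Without them the Cyp4a14 folds were 75.97 at 6000 ppm DEHP, 91.27 at 12000 ppm BBP and 51.24 at 10000 ppm DNOP. The members' counts without these 3 controls were 2, 8, 13 and 12 at 750, 1500, 3000 and 6000 ppm DEHP (beside 2.905%, 6.358%, 8.195% and 9.431% of all genes), 6 at 12000 ppm BBP (beside 3.877%), 0 at the lower BBP doses and at all DNOP doses by limma, and 12 for the difference of the DEHP and PB responses (beside 4.221%). With them they were 1, 9, 15 and 13, 6, 0 and 11, in the same order. Member calls lost without them are named below.

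The tissue label was checked on 6 hepatocyte markers, of which none was called at 6000 ppm DEHP or 600 ppm PB by limma. Their mean log2 signal was 9.93 to 10.23 at 6000 ppm DEHP, against 10.39 to 10.80 in phthalate controls, and 10.02 to 10.43 at 600 ppm PB, against 10.25 to 10.81 in PB controls. On this mean every DEHP sample lay below every phthalate control, while the PB samples overlapped the PB controls. The part of this in the members' changes was not tested.

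With 6000 ppm DEHP, 13 of the 38 tested members were called, 10 higher and 3 lower than in the phthalate controls. Of all tested genes 9.4% were called in this comparison, 5.24% higher and 4.16% lower. The Gst class held 7 of the rises and 1 of the falls among 22 members, with a median log2 change of 0.18. The Ugt class held 3 rises among 11 members, with a median of 0.42. In the Sult class 2 of 5 members fell and none rose, with a median of -0.47, while the median of all tested genes was -0.00285. Without DEHP replicate 2 the count was 8 of 38. For fits that leave out 1 sample, here and below, the share of all genes was not counted. Lost power and a change in the members cannot be told apart in those counts. With the samples of each label number averaged the count was 10, beside 6.72% of all genes. With each array centred on its own median in place of quantile normalization, 10 members were higher among 11 called, beside 8.045% of all genes, since the falls of both Sult genes passed no threshold.

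**Figure D1:**
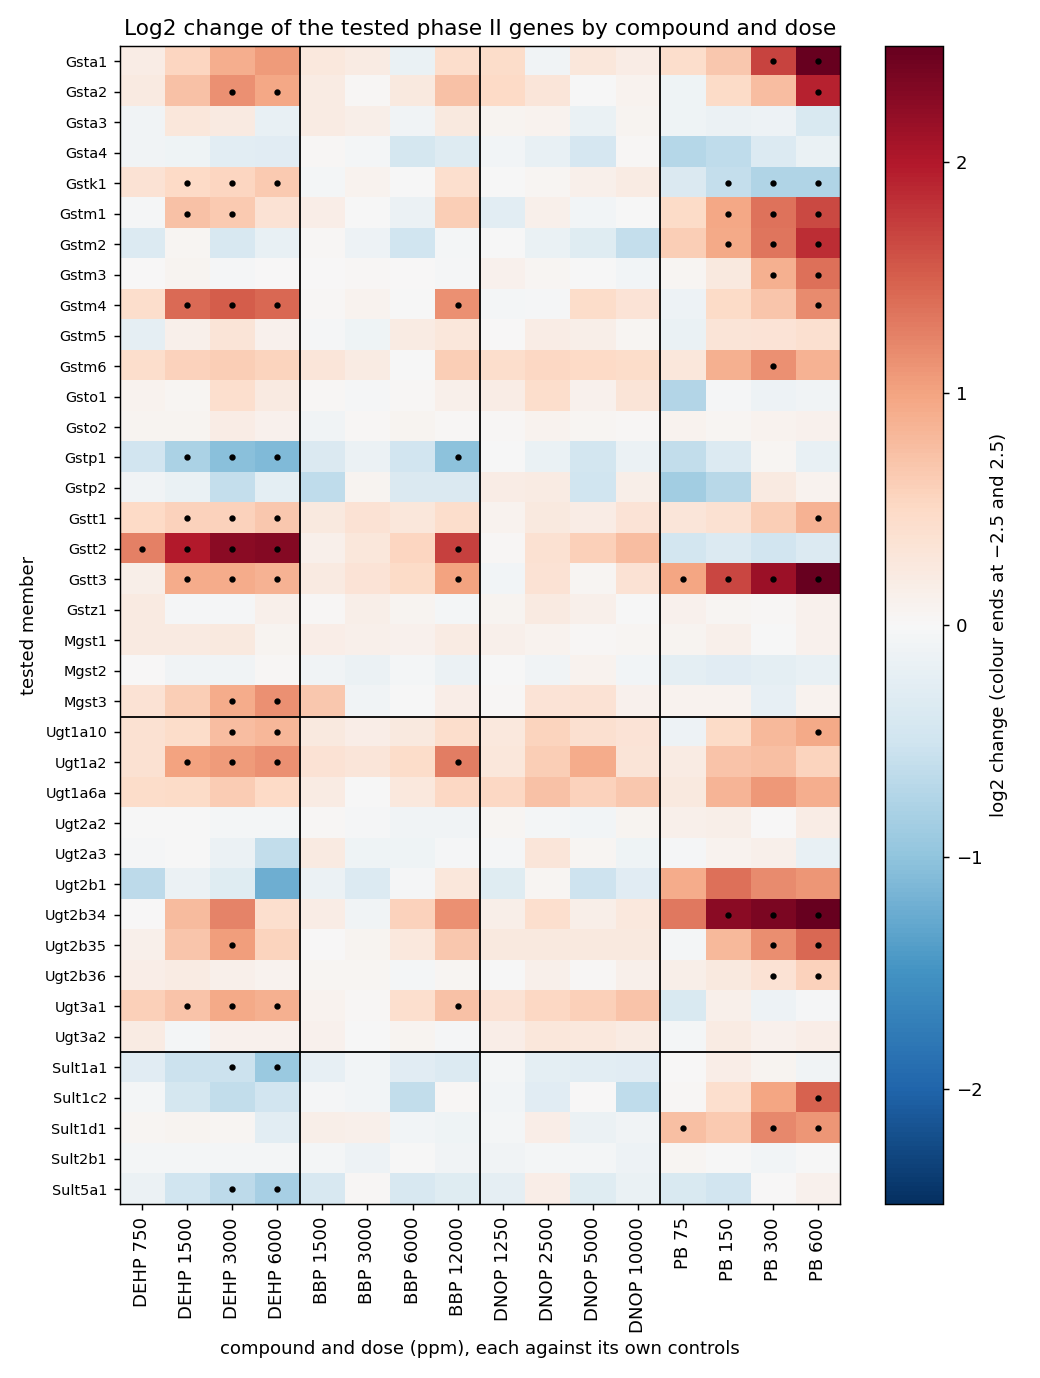
Log2 change of the 38 tested members (rows, grouped by enzyme class) at each of the 16 doses (columns, each compound from low to high) against its own controls. Colour runs from -2.5 to 2.5 and a dot marks an adjusted p under 0.05. Dots are present at each DEHP dose, at 12000 ppm BBP and at each PB dose, and no dot stands at any DNOP dose. The members' share of calls was near that of all genes at 750 ppm DEHP (1 dot). It was also near that share at 75 and 150 ppm PB (2 and 5 dots).

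Among the theta class transferases, which act on small halogenated compounds, Gstt2 showed the largest change with DEHP of any tested member. Gstt2 had log2 signals of 8.72, 10.16, 9.99 and 9.58 at 6000 ppm DEHP, against a lowest of 6.55, a median of 7.38 and a highest of 7.93 in the 10 phthalate controls. The groups did not overlap, and the lowest DEHP sample, replicate 1, still lay above every control. The mean was 9.61 ± 0.643 at 6000 ppm DEHP (SD, n = 4) and 7.33 ± 0.464 in phthalate controls (SD, n = 10), a log2 change of 2.30 (SE 0.244) or 4.91-fold, with an adjusted p of 5.34e-11 by limma. The Gstt2 fold ran from 3.52 to 6.29 over 5 scalings of the arrays. The neighbours of Gstt2 rose less: Gstt3 by 0.88 (SE 0.258, adjusted p = 0.0179 by limma) and Gstt1 by 0.67 (SE 0.173, adjusted p = 0.00543 by limma). Gstt3 samples overlapped the controls, and its call was lost without DEHP replicate 2 or 3 (adjusted p = 0.0761 and 0.190 by limma), without the 3 controls numbered 32 (0.77, adjusted p = 0.0691) and with label numbers averaged (adjusted p = 0.0577). Gstt1, at 10.97, 11.52, 10.69 and 10.88 with DEHP, lay just above the control range of 10.06 to 10.66, and lost its call without replicate 2 (adjusted p = 0.110 by limma).

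Among the mu class, Gstm4 had log2 signals of 7.58, 8.95, 9.11 and 9.01 at 6000 ppm DEHP, against 6.84, 7.29 and 7.52 as the lowest, median and highest of the phthalate controls. Replicate 1 stood only just above the highest control and the other 3 well above it, with no overlap. The log2 change was 1.44 (SE 0.196) or 2.71-fold (2.11 to 3.49 over 5 scalings), with an adjusted p of 8.30e-08 by limma. The mu class genes are close in sequence, and the files do not say how far the probes tell them apart, so the share of each paralog in these signals is uncertain.

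Gstk1 codes for the kappa class enzyme of mitochondria and peroxisomes. Its log2 signal was 12.32, 12.32, 12.13 and 12.35 at 6000 ppm DEHP, against 11.37, 11.65 and 11.89 as the lowest, median and highest of the phthalate controls. All 4 DEHP samples lay above all 10 controls. The change was 0.65 (SE 0.130) or 1.57-fold, with an adjusted p of 0.000225 by limma. Gstk1 was chosen for its opposite changes after its values were seen.

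Gstp1, the pi class enzyme that is abundant in the liver of male mice, fell. It had 11.80, 11.36, 11.61 and 11.95 at 6000 ppm DEHP, against 12.53, 12.84 and 12.99 as the lowest, median and highest of the phthalate controls. No DEHP sample reached the lowest control. Gstp1 fell by 1.11 on the log2 scale (SE 0.185, a ratio of 0.462), with an adjusted p of 8.85e-06 by limma. Gstp2, which lies next to Gstp1, stood at -0.25 (SE 0.370, adjusted p = 0.794 by limma).

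The membrane enzyme Mgst3, which reduces lipid hydroperoxides, had 7.21, 8.97, 8.44 and 7.83 at 6000 ppm DEHP, against 6.01, 7.10 and 7.58 as the lowest, median and highest of the phthalate controls. Replicate 1 lay inside the control range and the other 3 above it. The change was 1.14 (SE 0.250) or 2.20-fold (1.73 to 2.79 over 5 scalings), with an adjusted p of 0.000839 by limma. The alpha class genes Gsta1 and Gsta2 were dim. Gsta2 had 4.93, 5.83, 6.53 and 5.78 with DEHP, against 4.54 to 5.27 in phthalate controls, so that replicate 1 overlapped the controls. Its change of 0.96 (SE 0.316) passed at an adjusted p of 0.0390 by limma, but passed under only 2 of 5 scalings of the arrays and not without DEHP replicate 2, 3 or 4 or phthalate control replicate 3, 7 or 10 (adjusted p of 0.114, 0.275, 0.0832, 0.0555, 0.0538 and 0.0549 by limma). Gsta1 had 4.31, 6.54, 5.89 and 5.73 with DEHP, against 4.27 to 4.96 in controls, a change of 1.07 with an adjusted p of 0.0770 by limma, or 1.50 and 0.0120 without replicate 1. It was above background on 2 of 10 phthalate control arrays, and its fold ran from 1.11 to 2.30 over 5 scalings, none of them called.

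Of the glucuronosyltransferases, Ugt3a1, whose human counterpart attaches N-acetylglucosamine rather than glucuronic acid, had 10.83, 11.33, 10.90 and 11.16 at 6000 ppm DEHP, against 9.84, 10.05 and 10.84 as the lowest, median and highest of the phthalate controls. DEHP replicate 1 lay a shade below the highest control and the others above it. The change was 0.90 (SE 0.190) or 1.86-fold, with an adjusted p of 0.000538 by limma. Ugt1a10 and Ugt1a2 belong to the Ugt1a locus, whose transcripts share their later exons, so their signals may not be separate. Ugt1a10 rose by 0.84 (SE 0.242, adjusted p = 0.0160 by limma), with 11.48, 12.18, 12.01 and 11.28 at 6000 ppm DEHP against 10.23 to 11.39 in phthalate controls. It lost the call without replicate 2 or 3 (adjusted p = 0.131 and 0.0926 by limma). Ugt1a2 was above background on 1 of 4 DEHP arrays and on none of 10 control arrays, at 5.17, 6.98, 6.40 and 5.41 with DEHP, against 4.38 to 5.52 in controls, of which replicates 1 and 4 overlapped the controls. It was called higher (adjusted p = 0.0104 by limma), but with 1 array above background its size is not known, and its fold ran from 1.15 to 2.56 over 5 scalings. That call was lost without replicate 2 or 3 (adjusted p = 0.173 and 0.0741 by limma) and with label numbers averaged (adjusted p = 0.0571).

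Both sulfotransferases called with DEHP were lower. Sult1a1, the main phenol sulfotransferase, had 11.54, 11.25, 11.18 and 10.65 at 6000 ppm DEHP, against 11.53, 12.03 and 12.71 as the lowest, median and highest of the phthalate controls. Replicate 1 lay a shade above the lowest control and the other 3 below all controls. The fall was -0.92 (SE 0.173, a ratio of 0.529), with an adjusted p of 9.22e-05 by limma. Sult5a1 had 6.85, 6.14, 5.51 and 6.26 with DEHP, against 6.66, 7.01 and 7.55 in the controls on the same 3 marks, and 1 of 4 DEHP samples overlapped them. Its change was -0.82 (SE 0.179, adjusted p = 0.000738 by limma), and ran from -0.82 to -0.26 over 5 scalings. With arrays centred on their medians, which moves the median of all genes by 0.14 at this dose, Sult1a1 stood at -0.68 (adjusted p = 0.0772 by limma) and Sult5a1 at -0.53 (adjusted p = 0.177 by limma), or -0.82 and -0.67 relative to that median. Markers of periportal hepatocytes were also lower at this dose: 3 of 5 fell (Gls2, Hal and Cyp2f2), and their mean log2 signal ranged from 9.47 to 9.94 with DEHP, against 9.72 to 10.78 in phthalate controls. Of the other marker lists, 1 of 8 pericentral (Slc1a2, -0.66), 1 of 5 endothelial (Stab2, -0.60), 1 of 6 stellate cell (Dcn, -0.51) and 1 of 4 red cell markers (Alas2, -0.87) fell with DEHP. The red cell list had a median change of -0.76 and a mean log2 signal of 7.59 to 8.29 with DEHP, against 8.03 to 9.46 in phthalate controls. Fewer cells of a type and less RNA per cell cannot be told apart in bulk liver, and the part of these markers in the members' changes was not tested.

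**Figure D2:**
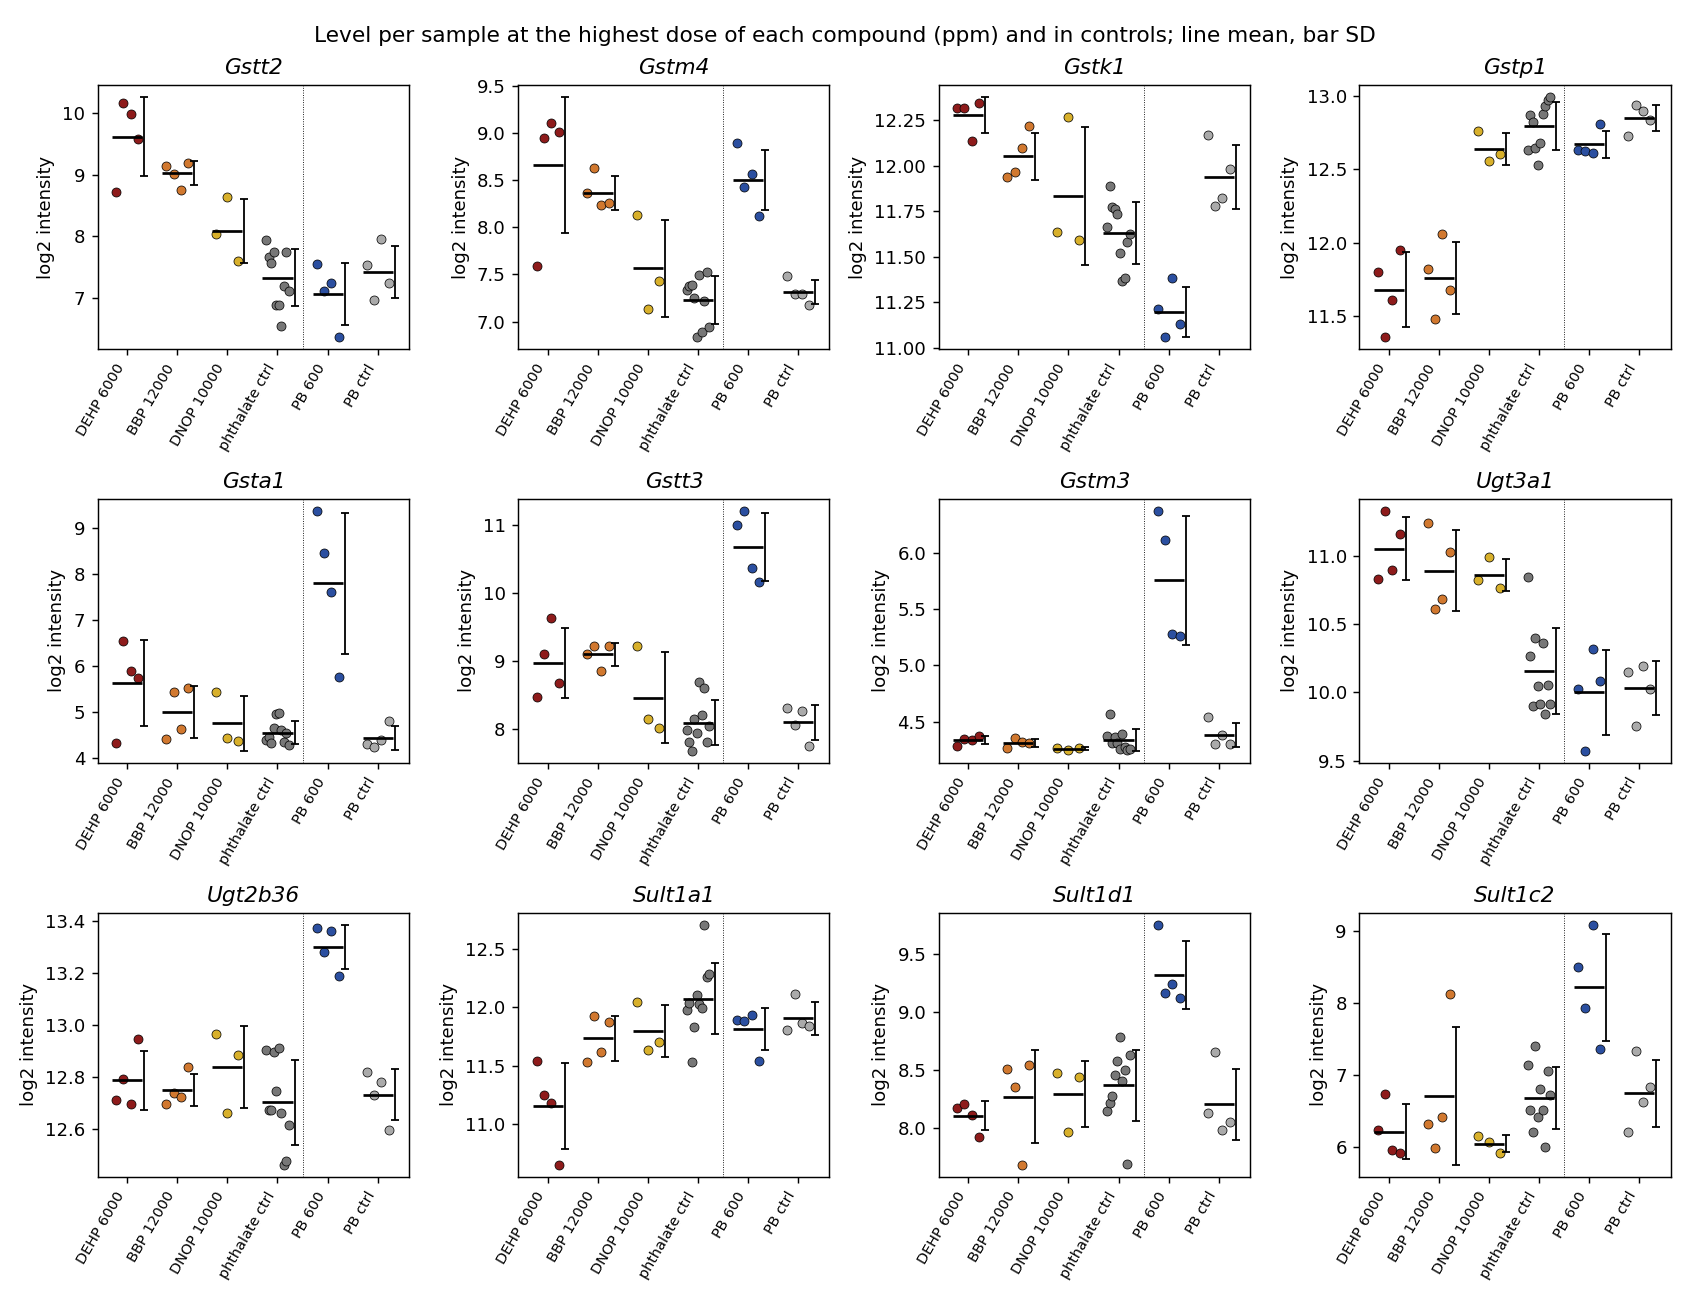
Log2 signal of 12 members in every sample (points) of the highest dose of each compound and of both control groups, with the mean (line) and SD (bar). The 4 samples at 6000 ppm DEHP stand apart from the phthalate controls for Gstt2, Gstm4, Gstk1 and Gstp1, and the 4 at 600 ppm PB stand apart from the PB controls for Gsta1, Gstt3, Gstm3, Gstm4, Gstk1, Ugt2b36, Sult1d1 and Sult1c2.

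With 600 ppm PB, 15 of the 38 members were called, 14 higher and 1 lower than in the PB controls. Of all tested genes 9.96% were called, 4.35% higher and 5.61% lower. The Gst class gave 8 rises and 1 fall among 22 members (median 0.10), the Ugt class 4 rises among 11 (median 0.57) and the Sult class 2 rises among 5 (median 0.10), with a median of 0.008 over all tested genes. Of the 15 called members, Gstt1 had PB and control samples that overlapped. Centring each array on its median moved the median of all genes by 0.53 in this comparison and called 26 members, all higher, among 44.45% of all genes called. Averaging the samples of each label number called 12 members, beside 5.166% of all genes. The sizes of the PB changes depended on the scaling, as did several of the DEHP sizes given above. Over 5 scalings the 14 members risen with PB were called in each, with the largest folds under centring.

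Among the members with large changes with PB was Gsta1, of the alpha class, whose enzymes detoxify lipid peroxidation products. Gsta1 had log2 signals of 9.36, 8.44, 7.60 and 5.76 at 600 ppm PB, against 4.29, 4.24, 4.39 and 4.80 in PB controls. The PB samples were widely spread but all above the controls, where no array measured Gsta1 above background. Under the reported scaling it was at least 6.46-fold higher (adjusted p = 6.54e-07 by limma), a bound set, per control array, against the higher of the gene's own signal and the signal at which a gene passes as above background. The bound holds for that scaling only, since the fitted log2 change ran from 1.34 to 3.39 over 5 scalings of the arrays, against 2.25 to 3.62 for Gstt3, so that their order depended on the scaling. Gsta2 had 8.41, 7.99, 6.45 and 5.72 with PB, against 5.24, 5.34, 5.29 and 5.02 in PB controls, a change of 1.92 (SE 0.382, adjusted p = 0.000455 by limma), or 1.66 to 5.19-fold over 5 scalings. The same sample was highest and the same sample lowest in Gsta1 and Gsta2, whose very similar sequences may share probes.

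Of the theta class, Gstt3 had 11.001, 11.22, 10.37 and 10.16 at 600 ppm PB, against 8.30, 8.05, 8.27 and 7.75 in PB controls, with a wide gap between the groups. The change was 2.59 (SE 0.312) or 6.02-fold (4.76 to 12.3 over 5 scalings), with an adjusted p of 8.76e-09 by limma. Gstt1 rose by 0.87 (SE 0.209, adjusted p = 0.00395 by limma), although 1 of its PB samples, at 10.50, lay inside the control range of 10.04 to 10.78, and without the 2 dimmest PB controls, replicates 1 and 2, its adjusted p was 0.115. Gstt2, the leading gene of the DEHP comparison, had 7.55, 7.12, 7.24 and 6.37 with PB, against 7.53, 6.97, 7.95 and 7.24 in PB controls. Those groups overlapped, with a change of -0.35 (SE 0.295, adjusted p = 0.495 by limma).

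Of the mu class, 4 of 6 tested genes rose. Gstm2 had 12.60, 12.16, 12.01 and 11.70 with PB, against 9.96, 9.97, 10.49 and 10.73 in PB controls, a change of 1.85 (SE 0.277) or 3.61-fold (3.43 to 6.80 over 5 scalings) with an adjusted p of 2.53e-06 by limma. Gstm1 had 11.35, 11.32, 11.12 and 11.10 with PB, against 9.45, 9.39, 9.96 and 9.57 in PB controls, a change of 1.64 (SE 0.263) or 3.12-fold (2.90 to 6.21 over 5 scalings) with an adjusted p of 1.10e-05 by limma. In both genes every PB sample lay above every control. Gstm4 rose by 1.19 (SE 0.238) or 2.28-fold (1.82 to 4.73 over 5 scalings), with an adjusted p of 0.000481 by limma. Gstm3, named after its values were seen, was above background on all 4 PB arrays and on no PB control array, at 6.37, 6.11, 5.28 and 5.26 with PB, against 4.54, 4.30, 4.38 and 4.31 in PB controls. Under the reported scaling it was at least 1.58-fold higher (adjusted p = 5.19e-08 by limma). That bound does not carry over to other scalings, under which the fitted fold was as low as 1.13. Gstm6 stood at 0.87 (adjusted p = 0.0996 by limma) and Gstm5 at 0.41 (adjusted p = 0.296 by limma).

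Gstk1 was the 1 member that fell with PB. It had 11.21, 11.06, 11.38 and 11.13 at 600 ppm PB, against 12.17, 11.78, 11.83 and 11.98 in PB controls. No PB sample reached the lowest control, and Gstk1 fell by 0.74 on the log2 scale (SE 0.158, a ratio of 0.598), with an adjusted p of 0.000980 by limma. Its call was lost with arrays centred on their medians, at -0.01 (adjusted p = 0.971 by limma), or -0.54 relative to the median of all genes. The PB controls of Gstk1 also stood 0.31 above the phthalate controls, a difference that passed only without the adjustment.

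Among the Ugt2b genes, which act on steroids and bile acids, Ugt2b34 had 8.32, 8.89, 7.73 and 9.41 at 600 ppm PB, against 5.37, 7.21, 6.58 and 5.22 in PB controls. The groups did not overlap, and the change of 2.48 (SE 0.659, 5.60-fold, 2.94 to 8.91 over 5 scalings) passed at an adjusted p of 0.00936 by limma. The adjusted p was 0.0511 without PB control replicate 1, the dimmest array. Ugt2b35 had 9.58, 10.10, 9.39 and 9.37 with PB, against 8.19, 8.88, 8.27 and 7.32 in PB controls, a change of 1.43 (SE 0.375, adjusted p = 0.00836 by limma), or 2.27 to 5.59-fold over 5 scalings. Ugt2b36 varied little within groups, at 13.37, 13.28, 13.36 and 13.19 with PB, against 12.82, 12.73, 12.78 and 12.60 in PB controls. It rose by 0.57 (SE 0.104, 1.48-fold), with an adjusted p of 0.000122 by limma. Ugt1a10 rose by 0.95 (SE 0.294, adjusted p = 0.0278 by limma), with 12.02, 11.94, 12.25 and 11.74 against 11.44, 11.18, 10.84 and 10.65 in PB controls, and lost the call without PB replicate 2 or 3 or PB control replicate 3 or 4 (adjusted p of 0.0538, 0.0710, 0.0539 and 0.0818 by limma). With the 2 samples of each label number averaged, Ugt2b34, Ugt2b35 and Ugt1a10 had adjusted p of 0.0625, 0.0866 and 0.0903 by limma.

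Both sulfotransferases called with PB were higher. Sult1d1, which sulfates catecholamines in the mouse, had 9.76, 9.17, 9.24 and 9.12 at 600 ppm PB, against 8.13, 8.65, 7.98 and 8.05 in PB controls. The groups did not overlap, and the change was 1.11 (SE 0.246) or 2.16-fold (1.89 to 4.46 over 5 scalings) with an adjusted p of 0.00165 by limma. Sult1c2 had 8.49, 7.92, 9.08 and 7.36 with PB, against 6.20, 7.32, 6.62 and 6.82 in PB controls, where PB replicate 4 lay just above control replicate 2. Its change of 1.47 (SE 0.403, adjusted p = 0.0118 by limma) lost the call without PB replicate 3 or PB control replicate 1 (adjusted p = 0.0648 and 0.0680 by limma), and its fold ran from 2.00 to 5.14 over 5 scalings. Ugt1a10 ran from 1.81 to 3.41 and Gstt1 from 1.76 to 3.51. Sult1a1 and Sult5a1, both lower with DEHP, stood at -0.10 and 0.10 with PB. Sult5a1 had 7.60, 7.42, 6.97 and 7.17 with PB, against 6.90, 6.80, 7.47 and 7.62 in PB controls, and the groups overlapped. Among marker lists, 1 of 6 macrophage markers (Emr1) rose and 2 of 6 stellate cell markers (Dcn and Lrat) fell at this dose, and 1 of 8 pericentral markers (Cyp1a2) rose. Their part in the members' changes was not tested.

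The DEHP and PB calls do not share control samples. Of the 13 members called at 6000 ppm DEHP and the 15 called at 600 ppm PB, 6 were called in both (6 of 13 and 6 of 15): Gsta2, Gstm4, Gstt1, Gstt3 and Ugt1a10 rose in both, and Gstk1 rose with DEHP and fell with PB. The overlap of calls over all genes was not counted, so this number is a description only. The difference of the responses, DEHP at 6000 ppm minus its controls against PB at 600 ppm minus its controls, was called for 11 of 38 members, 2 higher and 9 lower, while 3.22% of all tested genes were called. By class it was called for 7 of 22 Gst members (2 higher, 5 lower; median -0.16), 1 of 11 Ugt members (lower; median -0.42) and 3 of 5 Sult members (all lower; median -0.93), and the median of all tested genes was -0.00266. The 2 doses are the highest of each compound and are not matched, so the difference is one of these 2 exposures and not of potency. With the samples of each label number averaged 6 members were called, beside 1.545% of all genes, and without PB control replicates 1 and 2 also 6, beside 2.164%. Centring the arrays called 9 members, beside 2.34% of all genes, and moved the median of all genes by -0.31 in this contrast.

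**Figure D3:**
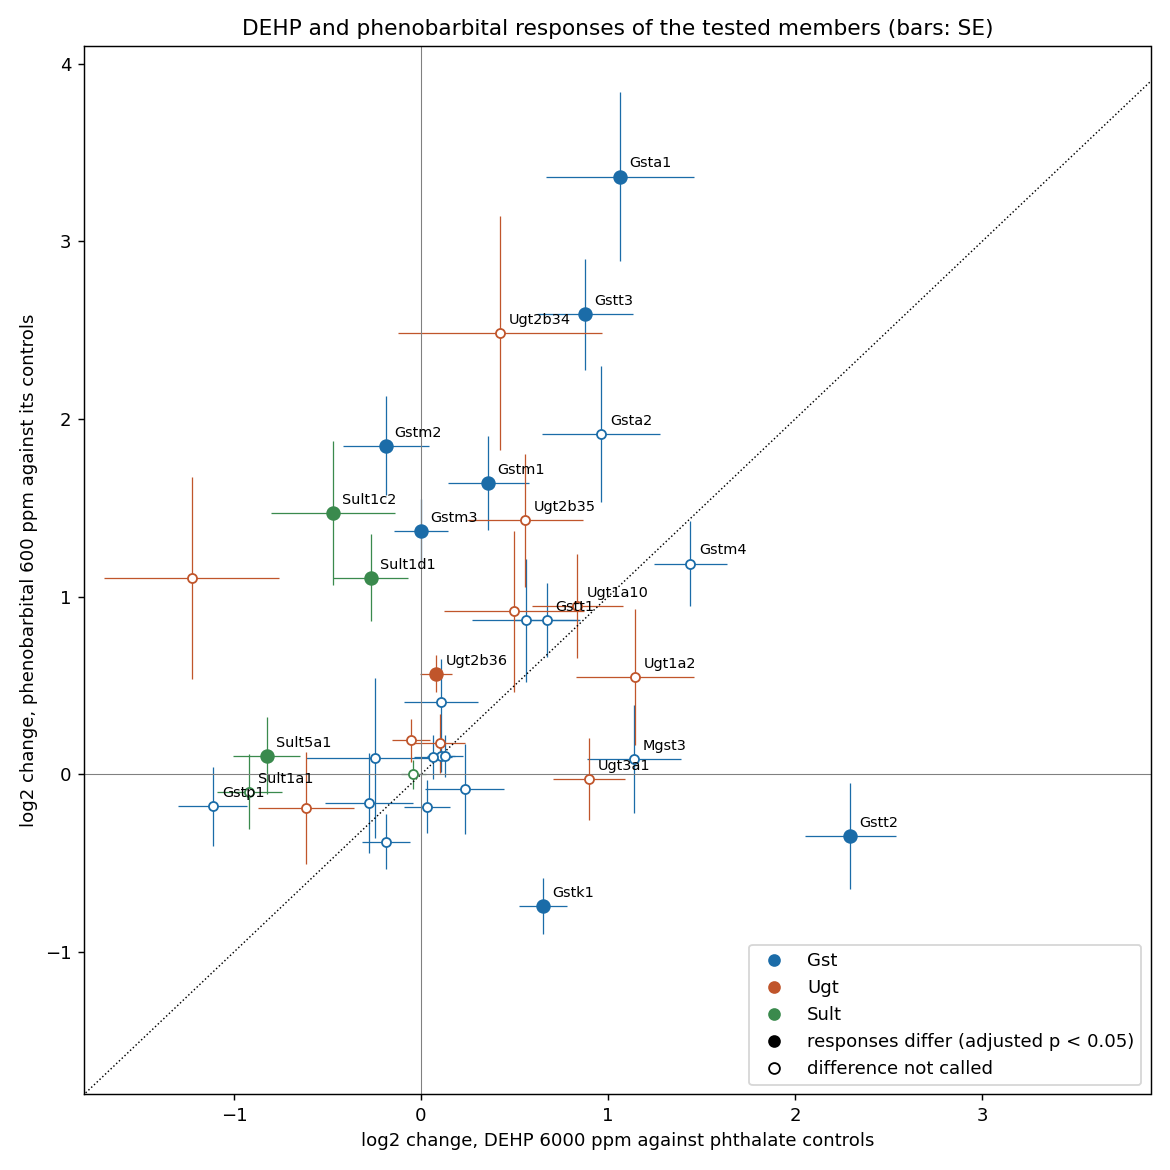
Log2 change of each tested member at 6000 ppm DEHP (horizontal axis) and at 600 ppm PB (vertical axis), each against its own controls, with SE bars. Filled points mark the 11 members whose difference of responses was called, with Gstt2 and Gstk1 to the right of the diagonal and Gsta1, Gstt3, Gstm2, Gstm1, Gstm3, Sult1c2, Sult1d1, Sult5a1 and Ugt2b36 above it.

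Gstt2 differed most in favour of DEHP, by 2.64 (SE 0.384, adjusted p = 1.55e-06 by limma), and Gstk1 by 1.39 (SE 0.204, adjusted p = 1.75e-06 by limma). In favour of PB, the differences were -2.30 for Gsta1 (SE 0.619, adjusted p = 0.0217 by limma), -2.04 for Gstm2 (SE 0.360, adjusted p = 8.01e-05 by limma) and -1.94 for Sult1c2 (SE 0.523, adjusted p = 0.0217 by limma). They were -1.71 for Gstt3, -1.38 for Sult1d1, -1.37 for Gstm3, -1.28 for Gstm1, -0.93 for Sult5a1 and -0.49 for Ugt2b36, with adjusted p between 2.89e-05 and 0.0492 by limma. Over 5 scalings the difference ran from -1.46 to -0.17 for Gstm3, -2.30 to -1.19 for Gsta1 and -2.55 to -1.20 for Sult1c2. No array at 6000 ppm DEHP and no control array of either kind measured Gstm3 above background. Gstt2, Gstm2, Gstt3 and Sult1d1 kept the call under every alternative run. Gstm3 kept it in the 33 alternatives that tested it, since the filter at 20 arrays removed it. Sult5a1 lost the call in 23 of 34, among them the fit without the 3 controls numbered 32 (adjusted p = 0.0713 by limma). Leaving out 1 sample ended the call of Gsta1 (DEHP replicate 1, PB replicate 1 or 2), Gstm1 (DEHP replicate 1, PB control replicate 1), Sult1c2 (PB replicate 3, PB control replicate 1) and Ugt2b36 (DEHP replicate 2 or 3, PB replicate 1, PB control replicate 4), with adjusted p from 0.0505 to 0.0944. The Gstk1 difference was 0.84 with arrays centred on their medians (adjusted p = 0.118 by limma).

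For some members risen in both comparisons no difference was called. The difference was 0.25 for Gstm4 (95% interval -0.36 to 0.87), -0.20 for Gstt1 (-0.74 to 0.35) and -0.11 for Ugt1a10 (-0.87 to 0.65). A missing call here does not show that the responses were equal. Ugt2b1 showed wide intervals in both comparisons, at -1.23 with DEHP (adjusted p = 0.0897 by limma) and 1.10 with PB (adjusted p = 0.217 by limma), and their difference of -2.33 had an adjusted p of 0.0638 by limma. Gstp1, lower with DEHP, stood at -0.18 with PB, a difference of -0.93 with an adjusted p of 0.0586 by limma. The PB controls and the phthalate controls were themselves compared: 0 of 38 members were called by limma and 3 were at an unadjusted p under 0.05 (Gsta3, Gsta4 and Gstk1), while 4.68% of all tested genes were called. Without phthalate control replicate 5 or 8, or PB control replicate 4, 1 member was called.

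Across the DEHP doses 1 member was called at 750 ppm (1.91% of all tested genes), 9 at 1500 ppm (8 rises and 1 fall, against 4.58%) and 15 at 3000 ppm (12 rises and 3 falls, against 8.43%), and 13 of these 15 were also called at 6000 ppm. The DEHP doses share the phthalate controls, so calls at 2 doses are not independent, and their overlap over all genes was not counted. The share at 750 ppm is near that of all genes. Gstt2 was the 1 member called there, with 8.89, 8.70, 8.09 and 8.60, all above the highest phthalate control. Its change was 1.25, 1.98, 2.26 and 2.30 at 750, 1500, 3000 and 6000 ppm. Gstm4 rose by 1.42 and 1.52 at 1500 and 3000 ppm, and Gstk1 by 0.51 and 0.54. Gstp1 fell by 0.79 and 1.04 at these doses, and Sult1a1 and Sult5a1 stood at -0.54 and -0.65 at 3000 ppm. Gstm1 rose at 1500 and 3000 ppm, by 0.74 and 0.66, and Ugt2b35 at 3000 ppm, by 1.05, but neither was called at 6000 ppm. Single samples moved the counts: without phthalate control replicate 1 there were 2 calls at 750 ppm, without DEHP replicate 1 or 2 there were 4 at 1500 ppm, and without DEHP replicate 1 or 2 there were 8 and 9 at 3000 ppm. Without the 3 controls numbered 32, Ugt3a1 was called at 750 ppm (adjusted p = 0.0427 by limma). Gstt3 and Ugt1a2 lost their calls at 1500 ppm (adjusted p = 0.0619 and 0.0617) while Sult1a1 gained one (adjusted p = 0.0259), and Gstt3 and Ugt2b35 lost theirs at 3000 ppm (adjusted p = 0.0501 and 0.126).

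**Figure D4:**
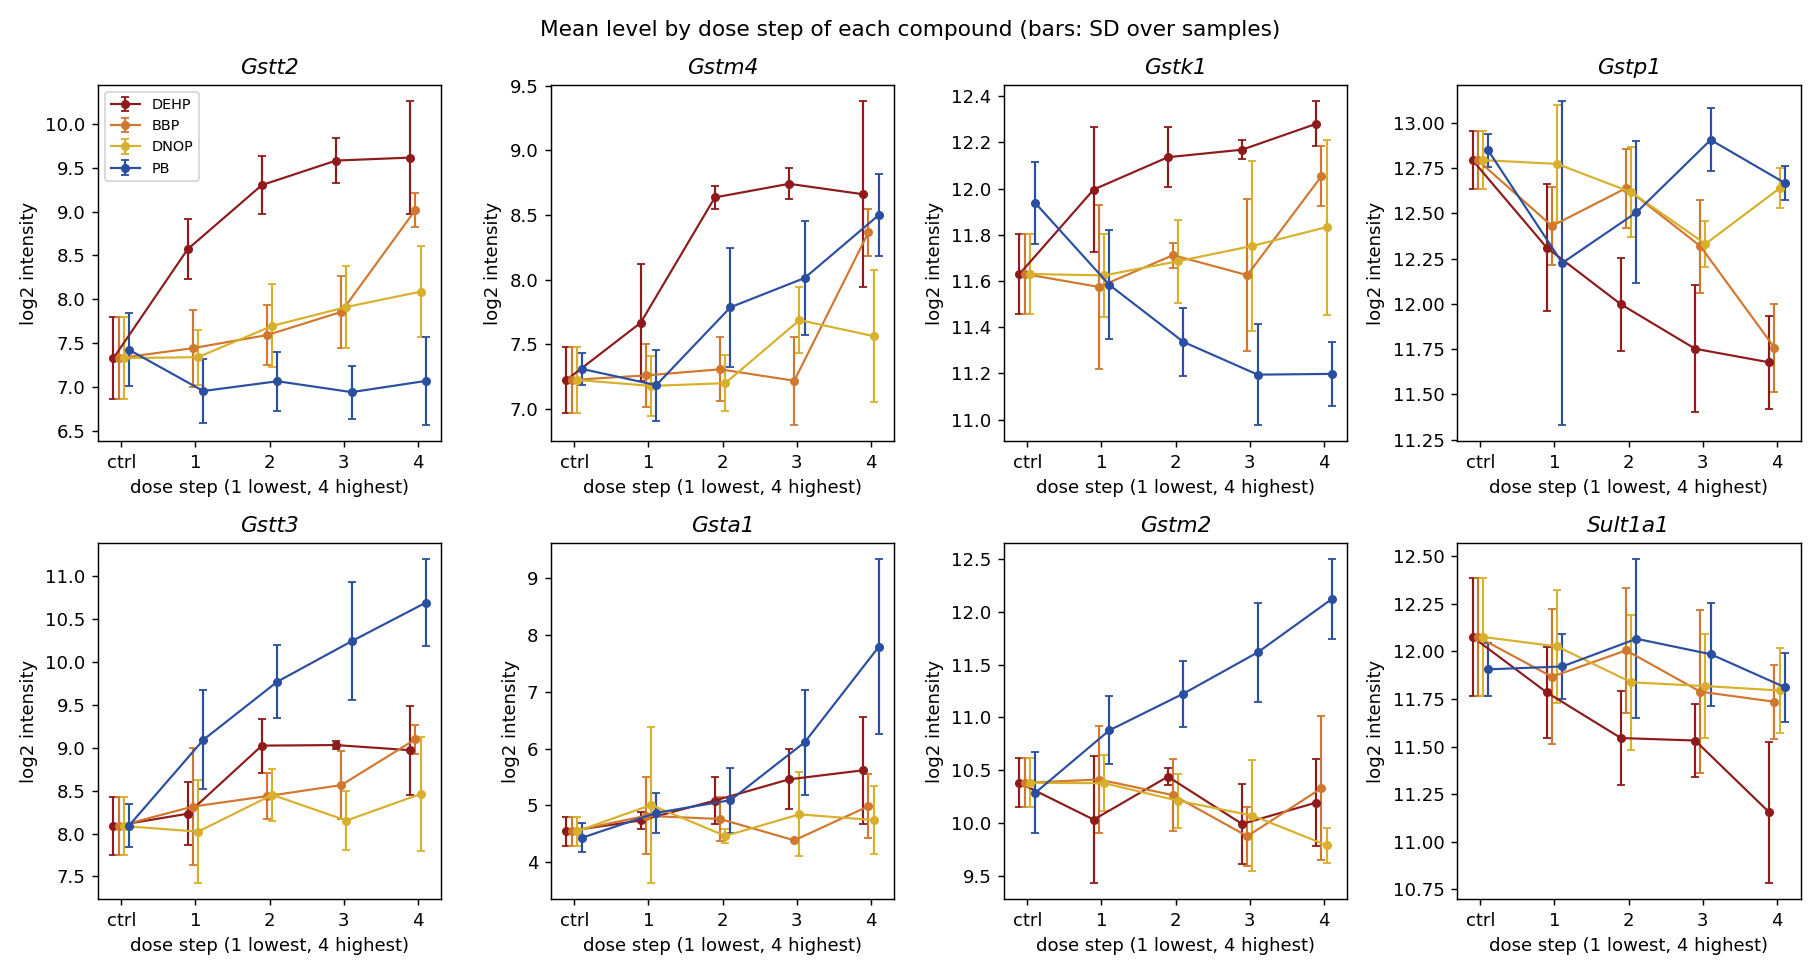
Mean log2 signal ± SD of 8 members by dose step of each compound, with its controls at the low end. Gstt2 climbs over the DEHP steps to 9.61 and reaches 9.02 at 12000 ppm BBP, and Gstt3 and Gstm2 climb over the PB steps to 10.69 and 12.12.

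Across the PB doses 2 members were called at 75 ppm (6.46% of all tested genes), 5 at 150 ppm (4 rises and 1 fall, against 11.6%) and 11 at 300 ppm (10 rises and 1 fall, against 8.44%), and 10 of these 11 were also called at 600 ppm. The PB doses share the PB controls, so calls at 2 doses are not independent, and their overlap over all genes was not counted. At 75 and 150 ppm the members' share was near that of all genes. Gstt3 was called at each dose, with changes of 0.99, 1.67, 2.14 and 2.59 at 75, 150, 300 and 600 ppm. At 75 ppm its samples were 8.23, 9.48, 9.27 and 9.38, and replicate 1 overlapped the PB controls. Gsta1 was at 7.05, 6.64, 5.78 and 4.97 at 300 ppm, all above the PB controls, and was at least 2.02-fold higher under the reported scaling (adjusted p = 0.0183 by limma). Gstk1 stood at -0.60 at 150 ppm and -0.75 at 300 ppm. Sult1d1 rose at 75 ppm by 0.76 and at 300 ppm by 1.19, and Gstm6 rose at 300 ppm by 1.15 and was called at no other dose. Without the 2 dimmest PB controls, replicates 1 and 2, the counts were 0, 1 and 5 at 75, 150 and 300 ppm, beside 2.49%, 3.294% and 2.058% of all genes. Leaving out 1 sample gave 0 to 4 at 75 ppm, where omitting PB control replicate 1 or 4 or PB replicate 2 or 4 gave 0, PB control replicate 2 or 3 gave 1 and PB replicate 1 gave 4. At 150 ppm it gave 2 without PB control replicate 1, 3 without PB replicate 2 and 8 without PB replicate 4. At 300 ppm it gave 7 without PB control replicate 1 and 6 without PB replicate 1.

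BBP moved members at its highest dose. At 12000 ppm 6 of 38 were called, 5 higher and 1 lower, against 2.94% of all tested genes (1.5% higher, 1.44% lower). Gstt2 had 9.13, 9.02, 8.75 and 9.18, all above the phthalate control range of 6.55 to 7.93, a change of 1.70 (SE 0.244, 3.25-fold, adjusted p = 1.45e-06 by limma). Gstm4 had 8.36, 8.62, 8.23 and 8.26, above the control range of 6.84 to 7.52, and rose by 1.15 (SE 0.196, adjusted p = 5.41e-05 by limma). Gstp1 had 11.82, 11.48, 12.06 and 11.68, below the control range of 12.53 to 12.99, and fell by 1.03 (SE 0.185, adjusted p = 0.000123 by limma). In Gstt2, Gstm4 and Gstp1 BBP and control samples did not overlap. Gstt3, at 9.10, 9.21, 8.86 and 9.21 with BBP against 7.67 to 8.68 in controls, rose by 1.004 (adjusted p = 0.0144 by limma). Ugt3a1, at 11.24, 10.61, 10.69 and 11.03 with BBP against 9.84 to 10.84 in controls, rose by 0.73 (adjusted p = 0.0160 by limma), with 2 of 4 samples inside the control range. Ugt1a2, at 6.25, 6.00, 5.69 and 6.56 with BBP, was called as well (adjusted p = 0.0100 by limma) but was above background on no array of either group, so no fold is given. Its ID averages several probes. The BBP signals lay above the level at which genes of 1 probe pass on those arrays, 4.71 to 4.79. Whether Ugt1a2 was truly at background there is therefore not known. Without BBP replicate 1 or 4 the count was 3, with Gstt3 (also lost without BBP replicate 2), Ugt3a1 and Ugt1a2 lost at adjusted p of 0.0567 to 0.155. Gstk1 stood at 0.42 (adjusted p = 0.0558 by limma). Without the 3 controls numbered 32, Gstt3 stood at 0.89 (adjusted p = 0.0517 by limma) and Gstk1 at 0.48 (adjusted p = 0.0306 by limma). Centring the arrays and averaging the samples of each label number both called 4 members, beside 0.9626% and 1.634% of all genes, and Gstt3 and Ugt1a2 had adjusted p of 0.0619 and 0.0712 when averaged. Of the marker lists, 1 of 5 periportal (Gls2, -0.55) and 1 of 8 pericentral markers (Slc1a2, -0.60) fell at 12000 ppm BBP, and their part in the members' changes was not tested.

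At 1500 and 3000 ppm BBP 0 of 38 members were called by limma, as were 0% of all tested genes, with 2 and 1 members at an unadjusted p under 0.05. At 6000 ppm BBP 0 members were called by limma, against 0.0795% of all tested genes, with 5 at an unadjusted p under 0.05. Gstt2 stood at 0.12, 0.27 and 0.54 over these doses, and Gstm4 at 0.04, 0.09 and -0.00205.

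DEHP and BBP were compared directly at their 3 shared doses. At 1500 ppm 3 of 38 members were called, all higher with DEHP, beside 1.69% of all tested genes. At 3000 ppm 4 were higher and 2 lower with DEHP, beside 4.11% of all genes, and at 6000 ppm 4 were higher, beside 2.25%. Gstt2 was 1.86, 1.99 and 1.76 higher with DEHP than with BBP at 1500, 3000 and 6000 ppm, with adjusted p of 1.06e-05, 1.02e-06 and 1.70e-05 by limma. Gstm4 was 1.38, 1.44 and 1.44 higher. Gstk1 was 0.56 higher at 1500 ppm and 0.66 at 6000 ppm (adjusted p = 0.0336 and 0.00591 by limma, and 0.0246 and 0.00548 when adjusted over the 3 pairs of doses as well). Mgst3 was 1.01 and 1.16 higher at 3000 and 6000 ppm, Ugt3a1 0.91 higher at 3000 ppm, and Gstp1 stood at -0.89 there. Sult5a1 stood at -0.69 at 3000 ppm (adjusted p = 0.0422 by limma, 0.0581 over the 3 pairs). Without DEHP replicate 3 the count at 3000 ppm was 3. At 6000 ppm no difference was called for Gstp1 (-0.64, 95% interval -1.07 to -0.21), Sult1a1 (-0.63, -1.04 to -0.23), Gstt3 (0.41, -0.20 to 1.01) or Gsta2 (0.71, -0.03 to 1.45), which does not show that the branched ester and the butyl benzyl ester act alike on them. Gstm4 of DEHP replicate 1 lay among the BBP samples at 6000 ppm.

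DNOP doses matched no dose of DEHP, so their values stand side by side without a test. By limma 0 of 38 members were called against the phthalate controls at 1250, 2500, 5000 and 10000 ppm, where 0%, 0.238%, 0.212% and 0.0618% of all tested genes were called and 0, 5, 5 and 3 members had an unadjusted p under 0.05. Gstt2 stood at 0.02, 0.38, 0.59 and 0.77 over the DNOP doses. At 10000 ppm it had 8.04, 8.63 and 7.59, of which 2 samples lay above the highest phthalate control of 7.93 and 1 inside the range. The change of 0.77 had a 95% interval of 0.23 to 1.31, an unadjusted p of 0.00608 and an adjusted p of 0.642 by limma. Ugt3a1 stood at 0.37, 0.51, 0.59 and 0.70, with an interval of 0.28 to 1.13 and an adjusted p of 0.404 by limma at 10000 ppm. In 1 sample at 1250 ppm DNOP, replicate 3, Gsta1 was 7.07 and Gsta2 6.67, against 4.26 to 4.37 and 4.68 to 5.05 in the other 3 samples of that group. That sample was singled out after its values were seen.

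Members that lie side by side in the genome did not all move together. In the RefSeq order of GRCm38.p6, the chromosome 3 cluster runs Gstm6, Gstm3, Gstm2, Gstm1, Gstm4, with Gstm5 1 gene further out. With DEHP Gstm4 rose by 1.44, and its 2 nearest members, Gstm1 and Gstm2, stood at 0.36 and -0.19. With PB Gstm3, Gstm2, Gstm1 and Gstm4 all rose. On chromosome 10 the order is Gstt3, Gstt1, Gstt4, Gstt2: the 2 ends of this cluster differed in their largest change, Gstt3 rising by 2.59 with PB and Gstt2 by 2.30 with DEHP. Gstt3 also rose by 0.88 with DEHP, and Gstt1, between them, by 0.67 with DEHP and 0.87 with PB. On chromosome 5 the Ugt2 genes and Sult1b1, Sult1d1 and Sult1e1 are neighbours, and with PB Ugt2b34, Ugt2b35, Ugt2b36 and Sult1d1 rose while Ugt2a2 and Ugt2a3, which lie between Ugt2b36 and Sult1d1, stood at 0.19 and -0.19, Ugt2a2 being near background.

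**Figure D5:**
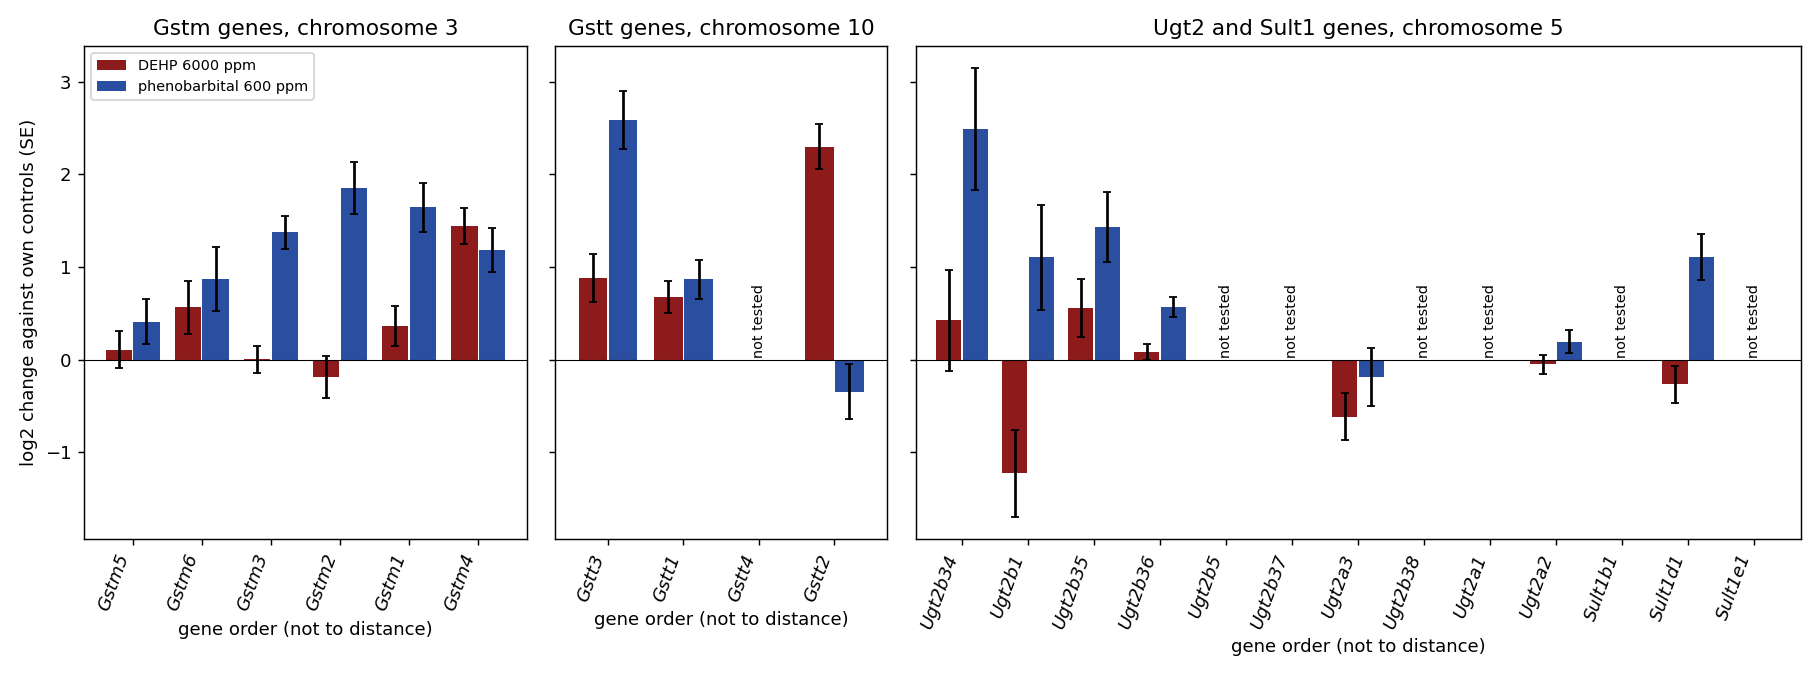
Log2 change (bars, with SE) of members in genome order for the Gstm cluster, the Gstt cluster and the Ugt2 and Sult1 cluster, at 6000 ppm DEHP (left bar of each pair) and at 600 ppm PB (right bar). Untested members are marked. Gstm4 is the 1 Gstm gene with a tall DEHP bar, at 1.44, and Gstt2 and Gstt3 carry the tallest DEHP and PB bars of the Gstt cluster, at 2.30 and 2.59.

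Another 15 tested members were called at no dose of any compound by limma: Gsta3, Gsta4, Gstm5, Gsto1, Gsto2, Gstp2, Gstz1, Mgst1, Mgst2, Sult2b1, Ugt1a6a, Ugt2a2, Ugt2a3, Ugt2b1 and Ugt3a2. Among them Gstz1, which isomerizes maleylacetoacetate in tyrosine breakdown, stood at 0.13 (SE 0.0966) with 6000 ppm DEHP and 0.10 (SE 0.117) with 600 ppm PB. Mgst1, the abundant microsomal transferase, stood at 0.07 (SE 0.100) and 0.10 (SE 0.122). Ugt1a6a, a phenol glucuronosyltransferase, stood at 0.50 (SE 0.375) and 0.92 (SE 0.455, adjusted p = 0.200 by limma), with wider errors. Mgst2 and Ugt2a2 were above background on 3 and 5 of 77 arrays, which limits what a lack of a call means for them. The 11 untested members were Gstt4, Sult1b1, Sult1c1, Sult1e1, Sult3a1, Sult4a1, Ugt2a1, Ugt2b37, Ugt2b38, Ugt2b5 and Ugt8a. Sult1e1, the oestrogen sulfotransferase, and 7 others of these were above background on 0 arrays, so their levels are not known here beyond that.

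The genes that supply, export or undo conjugates were taken from a list chosen by name. Of 3 tested exporters of conjugates, 2 rose with 6000 ppm DEHP and 1 with 600 ppm PB: Abcc3, the basolateral exporter, by 2.65 with DEHP (adjusted p = 5.00e-12 by limma) and by 3.17 with PB (adjusted p = 2.12e-11 by limma), and the canalicular Abcc2 by 0.83 with DEHP (adjusted p = 0.00171 by limma). Of 8 genes of glutathione supply and turnover, 2 rose with DEHP, Oplah (1.03), which recycles 5-oxoproline, and Pgd (0.75), which makes NADPH, and 0 with PB by limma. Of 5 genes of the sulfate donor, 1 fell with DEHP, the sulfate transporter Slc26a1 (-0.97), and 1 rose with PB, the PAPS synthase Papss2 (0.83). None of 2 genes of UDP-glucuronate supply was called in either comparison by limma. Of 9 methyl, acetyl and acyl conjugation genes, 2 fell with DEHP (Nnmt, -1.57, and Glyat, -0.38) and 2 rose with PB (Tpmt, 0.89, and Nat2, 0.66). Of 7 regulators, 2 rose with DEHP, Nr1i3, which codes for CAR, by 0.76 (adjusted p = 0.0479 by limma) and Nfe2l2, which codes for NRF2, by 0.55 (adjusted p = 0.0453 by limma), and none was called with PB by limma.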

How the data were processed

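Per the file headers, 1 deposited table pairs each gene's average bead intensity, linear and not normalized between arrays, with its detection p-value. A second deposited table gives intensities after a normalization by the authors whose method is not given in the sources used here, and served as an alternative. Some IDs, such as Gstm1, Gsto2, Sult1b1, Sult1d1, Sult2b1, Ugt1a2 and Ugt2a3, average several probes. Per the labels' protocols, RNA was extracted with Trizol and column clean-up and labelled with biotin as cRNA.

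Array backgrounds were estimated from the detection p-values between 0.02 and 0.98 that lie on the 798-step grid of the negative controls (78.27% of them, tolerance 0.002). Correction by the normal-exponential model (offset 16), log2 transformation and quantile normalization were done in limma 3.58.1 (R 4.3.3). Genes with a detection p under 0.05 on at least 3 arrays were tested. A single limma model of the 18 groups used all 77 samples, with the 62 label numbers as a random block (correlation 0.099) and 59 residual degrees of freedom, and moderated p-values were adjusted by Benjamini-Hochberg over 11324 genes. Precision is limited by how many arrays each group has. "At least" folds set a group above background against, per array, the higher of the other group's own signal and the level at which a gene passes as above background: the median of genes with an on-grid detection p from 0.04 to under 0.05, since the lowest passing signal could be that of an ID averaging several probes. This level was chosen after seeing the data, and the folds hold for the reported scaling.

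Values per sample were given for up to 5 called members per class at 6000 ppm DEHP and at 600 ppm PB, and up to 3 per class at 12000 ppm BBP, at 10000 ppm DNOP and for the difference of responses, by size of change; Gstk1, Gstm3 and Gstt1 were added after their values were seen. The members, the partner and marker lists and the tests were chosen with earlier results of these data known. Alternatives changed the background, the normalization, the filter, the block, array weights and samples. Leaving out PB control replicates 1 and 2 was chosen after seeing the data.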

Additional observations from a re-analysis of the deposited data

Results flagged for a closer look

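The difference between the response to 6000 ppm DEHP and the response to 600 ppm PB was called by limma for 11 members: -2.30 for Gsta1, 1.39 for Gstk1, -1.28 for Gstm1, -2.04 for Gstm2, -1.37 for Gstm3, 2.64 for Gstt2, -1.71 for Gstt3, -1.94 for Sult1c2, -1.38 for Sult1d1, -0.93 for Sult5a1 and -0.49 for Ugt2b36, in log2 units. For Gsta1 and Gstm3 the size is set in part by background, since neither was measured above background on any PB control array.

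Single samples stood apart from their group in 6 of 110 pairs of a gene and a group, a share close to the 1 in 20 that chance gives. They were Gstm4 at 7.58 in DEHP 6000 ppm replicate 1, Gstm2 at 10.81 in DEHP 6000 ppm replicate 2, Gstk1 at 12.13 in DEHP 6000 ppm replicate 3, Gstp1 at 12.81 and Sult1a1 at 11.54 in PB 600 ppm replicate 4, and Gstm3 at 4.57 in phthalate control replicate 2, one of the dimmest arrays.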

How the results depend on the processing

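The members called at 6000 ppm DEHP in every one of 25 alternatives were Gstt2, Gstm4, Mgst3, Gstp1, Ugt3a1 and Gstk1. Centring each array on its median in place of quantile normalization gave 3 called members at 1500 ppm DEHP (beside 1.183% of all genes), 0, 23, 25 and 26 at 75, 150, 300 and 600 ppm PB (beside 0.1413%, 45.28%, 33.85% and 44.45%), 2 for DEHP against BBP at 6000 ppm (beside 1.148%), and 12 for PB controls against phthalate controls (beside 38.88%). Under it the change of Ugt3a1 at 600 ppm PB turned to 0.97 (adjusted p = 0.0242 by limma). The cause was not tested. Array quality weights gave 2 and 15 members at 750 and 1500 ppm DEHP (beside 2.667% and 12.1% of all genes), 1 at 10000 ppm DNOP (2.587%), 10 at 150 ppm PB (14.6%) and 10 for DEHP against BBP at 3000 ppm (10.15%). Averaging the samples of each label number, which leaves fewer samples, gave 4 and 8 at 1500 and 3000 ppm DEHP (beside 2.791% and 5.466%), 0, 2 and 6 at 75, 150 and 300 ppm PB (2.473%, 4.83% and 3.665%), and 6 for the difference of responses (1.545%). Without PB control replicates 1 and 2 there were 0, 1 and 5 at 75, 150 and 300 ppm PB (2.49%, 3.294% and 2.058%) and 6 for the difference of responses (2.164%). Without the 3 controls numbered 32 there were 2 at 750 ppm DEHP (2.905%). With no filter on dim genes 1 was called at 75 ppm PB (4.653%). PB controls against phthalate controls had 1 called member with no background correction, with neqc's background, with no filter and with no block. Leaving out 1 sample at a time gave 1 to 2, 4 to 9, 8 to 15 and 8 to 14 at 750, 1500, 3000 and 6000 ppm DEHP, 3 to 7 at 12000 ppm BBP, 0 at the lower BBP and all DNOP doses, 0 to 4, 2 to 8, 6 to 11 and 13 to 15 at 75, 150, 300 and 600 ppm PB, 2 to 4, 3 to 5 and 3 to 6 for DEHP against BBP at 1500, 3000 and 6000 ppm, 8 to 12 for the difference of responses and 0 to 1 between the control groups. The share of all genes was not counted for the fits that left out 1 sample. With the labels' replicate number as a replicate block, 13 members were called at 6000 ppm DEHP (beside 10.49% of all genes), 15 at 600 ppm PB (11.36%), 7 at 12000 ppm BBP (3.594%) and 12 for the difference of responses (3.833%). In the phthalate dose groups, same-numbered samples of different groups had a mean correlation of deviations of 0.034, against -0.011 for others. Deviations were taken from group means, so the second value largely follows from the first. Whether the numbers pair the samples was therefore not settled. Signal over background limits Gsta1, Gstm3, Ugt1a2, Gsto2, Mgst2, Sult2b1 and Ugt2a2.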

Other observations

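Conjugation-related genes outside the 3 classes were also measured, and for none of Nnmt, Sts, Hagh and Tpmt was the difference of the DEHP and PB responses called (adjusted p = 0.189, 0.447, 0.0605 and 0.0780 by limma). Nnmt, which methylates nicotinamide, stood at -2.02 at 12000 ppm BBP, as well as at -1.57 at 6000 ppm DEHP. Among genes of deconjugation, 1 of 4 was called with 600 ppm PB, the steroid sulfatase Sts at -0.57, and 0 of 4 with DEHP by limma. Among 6 other glutathione-linked enzymes, Hagh, a glyoxalase, stood at -0.71 with PB, and 0 were called with DEHP by limma. Tpmt, called higher with PB, also differed between the control groups, standing at -1.03 in PB controls relative to phthalate controls (adjusted p = 0.00850 by limma).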
